A study of Mus musculus with 15 samples.

Results

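The genes described here encode the machinery of DNA replication and of mitosis, together with the cyclins, kinases and transcription factors that drive the cell from G1 into S phase and from G2 into mitosis. They are 50 of 21000 protein-coding genes and were taken by name, as 28 replication (G1/S) genes and 22 mitosis (G2/M) genes. No peak value was a criterion, but earlier results of these data were known when they were chosen. The mark measured was H3K27ac, acetylation of histone H3 at lysine 27, which lies at active promoters and enhancers. A promoter was 2 kb either side of a RefSeq start site, the neighbourhood of a gene was its body and 10 kb either side, and a distal peak lay in the neighbourhood but touched no promoter of any gene.

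The study profiled mouse fusion-positive rhabdomyosarcoma (FP-RMS), a sarcoma whose driver is PAX3-FOXO1 (P3F), a fused transcription factor, by CUT&RUN, in which a tethered nuclease releases the DNA beside an antibody. Its 15 libraries were 6 MCP and 3 TCP libraries for H3K27ac and 3 MCP and 3 TCP libraries for IgG, which binds no particular mark. The peak list analyzed came from 1 library, MCP H3K27ac replicate 5, and the other libraries, TCP included, were not analysed here. The genotype of MCP tumors was Myf6-Cre and Cdkn2a(Flox/Flox), with the fusion allele at Pax3, written Pax(3P3F/P3F) in the label, and the reporter R26-tdTom. In these mice Cre from the Myf6 locus, which acts in myogenic cells, turns on P3F and the fluorescent protein tdTomato and deletes the floxed Cdkn2a gene, which encodes cell cycle inhibitors. In the TCP mice Cre is driven by Tek sequence, which acts in endothelial and some blood cells. Live cells were sorted from dissociated tumors, and the label of this library gives no tumor number or age.

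Replication begins when the origin recognition complex, CDC6 and CDT1 load the MCM helicase in G1, and CDC45 and the GINS complex turn the helicase on in S phase. E2F transcription factors, released from the retinoblastoma protein by cyclin-dependent kinases, activate many of these genes at E2F sites. Genes for mitosis peak later, when MYBL2 (B-MYB) and FOXM1 join the MuvB complex, which binds a short promoter element called the CHR (cell cycle genes homology region), often beside CCAAT boxes. Both classes are known to be repressed in resting cells and to be transcribed in proliferating tumors.

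Promoter sequences of 5 members are shown because they carry these elements and include genes with and without an H3K27ac peak. Rfc3 and Kif11 had the highest fold enrichment among the replication and the mitosis genes with an element, and Mcm5, Cdk1 and Top2a were chosen after their values were seen. The sequences are from RefSeq (GRCm38.p6, the release behind mm10) and run 5′ to 3′ in the direction of transcription, from 200 bases upstream of the start site to 1 base upstream, or to 42 bases upstream for Mcm5 and 11 for Top2a, where an annotated exon begins. They lie at chr5:151651209-151651408 (minus strand, Rfc3), chr8:75109309-75109467 (plus, Mcm5), chr19:37376182-37376381 (plus, Kif11), chr10:69352913-69353112 (minus, Cdk1) and chr11:99024200-99024389 (minus, Top2a). Capitals mark E2F sites, CHR elements and CCAAT boxes on either strand.
Rfc3: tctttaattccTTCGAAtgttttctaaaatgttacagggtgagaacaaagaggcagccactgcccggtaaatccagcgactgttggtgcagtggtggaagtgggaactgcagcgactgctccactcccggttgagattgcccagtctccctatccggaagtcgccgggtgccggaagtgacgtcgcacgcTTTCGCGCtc
Mcm5: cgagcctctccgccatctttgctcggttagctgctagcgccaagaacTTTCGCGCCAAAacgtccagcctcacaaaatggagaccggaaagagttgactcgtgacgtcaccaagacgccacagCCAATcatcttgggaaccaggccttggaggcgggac
Kif11: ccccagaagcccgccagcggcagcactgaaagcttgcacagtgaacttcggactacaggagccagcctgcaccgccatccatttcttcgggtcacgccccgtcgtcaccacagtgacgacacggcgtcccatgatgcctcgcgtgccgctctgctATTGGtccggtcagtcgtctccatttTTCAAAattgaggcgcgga
Cdk1: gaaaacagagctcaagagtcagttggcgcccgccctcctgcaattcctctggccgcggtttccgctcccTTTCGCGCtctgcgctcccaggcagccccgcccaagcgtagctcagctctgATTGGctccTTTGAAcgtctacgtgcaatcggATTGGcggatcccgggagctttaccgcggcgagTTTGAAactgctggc
Top2a: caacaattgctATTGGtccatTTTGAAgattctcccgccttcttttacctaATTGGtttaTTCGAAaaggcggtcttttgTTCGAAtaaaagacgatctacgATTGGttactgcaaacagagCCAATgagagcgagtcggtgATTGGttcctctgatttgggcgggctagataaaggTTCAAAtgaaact

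The E2F site was searched as TTTCCCGC or TTTCGCGC or TTTGCCGC or TTTGGCGC, the CHR as TTTGAA or TTCGAA, the CCAAT box as CCAAT and the GC box as GGGCGG, each on both strands. In Mcm5 a pair of E2F sites on opposite strands overlap in a run that starts 153 bases upstream. Cdk1 holds an E2F site 131 bases upstream, CCAAT boxes at 80 and 48 bases and CHR elements at 71 and 15 bases. Top2a holds 4 CHR elements and 5 CCAAT boxes in the stretch shown, Kif11 a CHR 19 bases and a CCAAT box 45 bases upstream, and Rfc3 an E2F site 10 bases upstream. These are matches of letters, and binding was not measured.

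Over windows from 250 bases before to 50 after each start site, 40 of the 50 members had 42 windows in the sequence table. An E2F site lay in 10 of 25 windows of replication genes (40%, Wilson 95% interval 23.4 to 59.3%) and in 1 of 17 windows of mitosis genes (5.88%, 1.05 to 27%), that of Cdk1. Of 20488 windows of all genes, 2.91% held an E2F site. A CHR lay in 13 of 17 windows of mitosis genes (76.5%, 52.7 to 90.4%), in 6 of 25 of replication genes (24%, 11.5 to 43.4%) and in 17.0% of all windows. CCAAT boxes were in 88.2% of the mitosis, 68% of the replication and 38.4% of all windows, and GC boxes in 88.2%, 80% and 47.6%. An E2F site and a CHR lay in the same window at Rfc3, Mcm7 and Cdk1. Foxm1, Ccna2, Mcm4, Aurkb, Kif20a, Pole, Gins1, Gins2, Ccne2 and Cdc25c are named only.

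The list held 122375 peaks with a median width of 163 bp and a median fold enrichment of 5.22. Here fold compares the scaled fragments over a summit with the caller's background, with 1 added to both. At 47.0% of the peaks the background was the lowest in the list, 1.05, and fold there follows the fragment number alone. Fragment numbers at the summit were recovered from each peak's fold and p. The median was 13 fragments (quartiles 10 and 17) and the fewest 7, so weak marking was not detectable at this depth. Intervals given for a fold are exact Poisson 95% intervals on those fragments and cover counting error only. There are no replicates, and genes of 1 library are not replicates, so no test was made. Cells were assayed in bulk, where fewer cycling cells and less H3K27ac per cell cannot be told apart. Of 14 myogenic markers, 2 had a promoter peak (Pax3 and Myf6, whose loci also carry the alleles of the model), and Myod1, Myog, Myf5, Pax7 and Des had none. Promoter peaks lay at 1 of 14 endothelial markers (Cd34) and 3 of 14 immune markers (Cd68, Cd14 and Fcer1g). In order, the myogenic, endothelial and immune shares were 14.3%, 7.14% and 21.4%. All genes with the same CpG content around the start site had 47.5%, 42% and 14.1%. The part of endothelial and immune cells in the results below was not tested.

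Most of the 50 members had an H3K27ac peak within 2 kb of a start site. A promoter peak was present at 36 of the 50 members (72%, Wilson 95% interval 58.3 to 82.5%), against a background of 45.6% of all protein-coding genes. The share rises with the CpG content of a promoter, and the members were rich in CpG. All genes weighted to the members' CpG content, counted within 500 bp of the start site, had a promoter peak in 63.8%, which lies inside the members' interval. At least 1 peak lay in the neighbourhood of 45 members (90%, 78.6 to 95.7%), against 62.7% of all genes and 79.3% at the same CpG content. That share too lies inside the members' interval. Stricter settings lowered the members' promoter share to 46% within 500 bp of a start site, 44% at a -log10 q cutoff of 5 and 38% in the strongest 25% of the peaks, beside 36.3%, 37.9% and 29.3% of all genes. Replication genes were then at 35.7% under each, close to all genes in the first and second of these settings. Mitosis genes were at 59.1%, 54.5% and 40.9%. CpG content was not held equal in these settings.

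**Figure D1:**
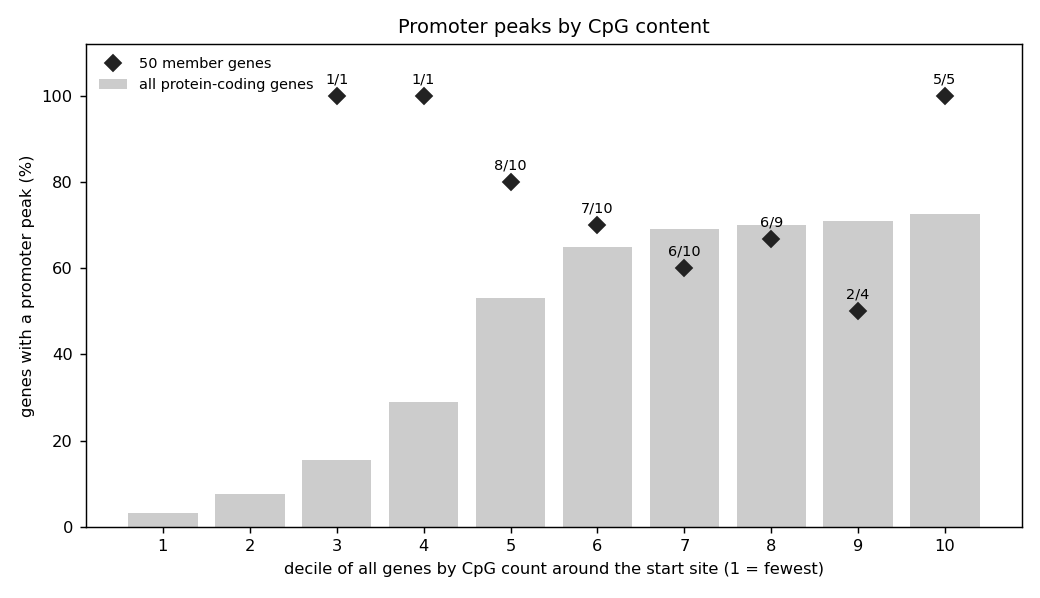
Share of genes with a promoter H3K27ac peak (y axis, %) in each decile of the 21000 genes by CpG count around the start site (x axis, 1 = fewest). Grey bars are all genes and diamonds the members, with the members that had a peak over those in the decile. All genes rose from 3.1% to 72.5%, and 48 of the 50 members sat in the 6 upper deciles.

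With so few genes, the promoter shares of replication and mitosis genes could not be told apart, which does not show that they are equal. Promoter peaks lay at 19 of 28 replication genes (67.9%, 49.3 to 82.1%) and at 17 of 22 mitosis genes (77.3%, 56.6 to 89.9%). The replication share was lower by 9.42 points, with a 95% interval from 31.8 points lower to 15.7 points higher (Newcombe). At the same CpG content all genes had 64.6% and 62.9%. The median fold of the strongest promoter peak was 6.82 in replication genes (95% interval 5.17 to 8.71, n = 19 genes) and 6.96 in mitosis genes (4.93 to 8.67, n = 17), beside 7.24 in all 9569 genes with a promoter peak. With the summit required inside the promoter window, the medians were 5.22 (4.79 to 8.24) in replication and 6.96 in mitosis genes. Of the 36 members with a peak, 17 lay above that median and 19 at or below it.

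**Figure D2:**
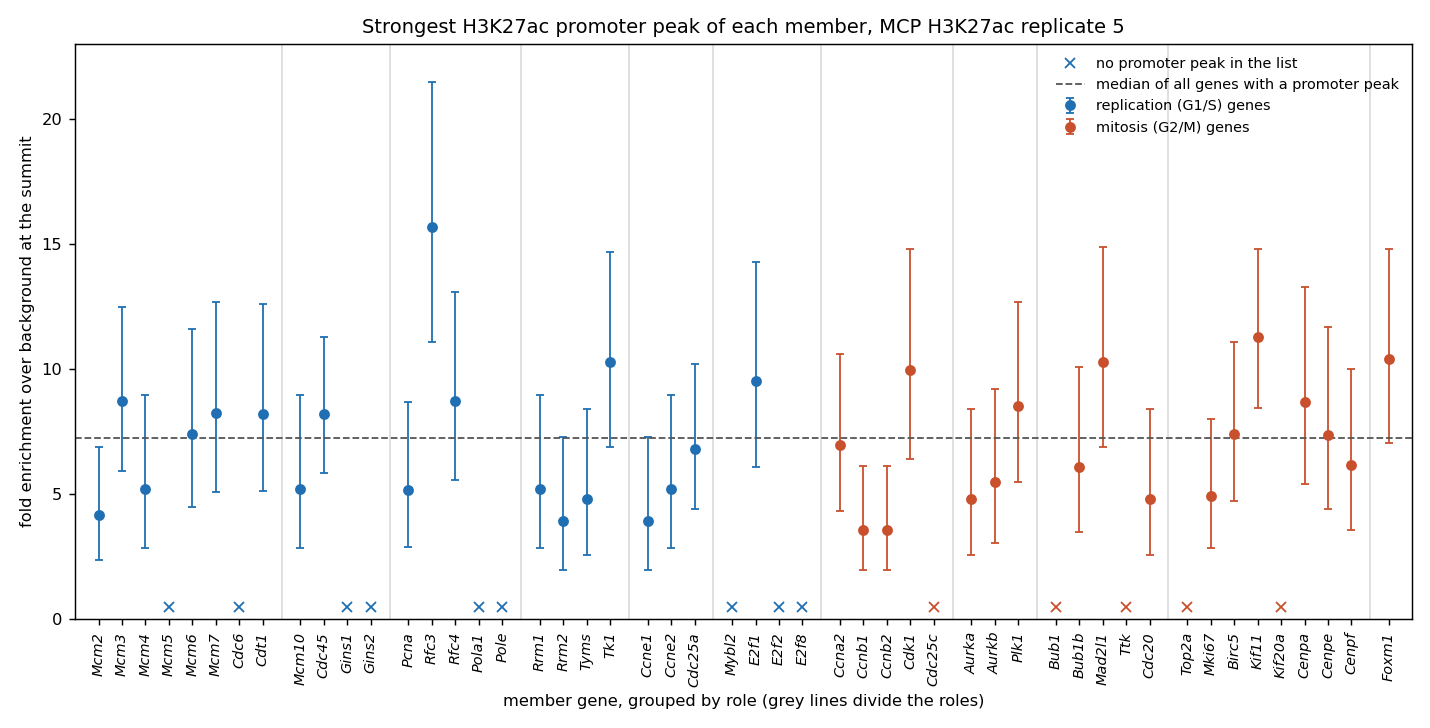
Fold enrichment over background (y axis) at the summit of the strongest promoter peak of each member (x axis, by role), with exact Poisson 95% intervals. Blue points are replication genes, red points mitosis genes and crosses the 14 members without a promoter peak. The dashed line is the median of all genes with a promoter peak, 7.24, and most intervals cross it.

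The licensing genes load the helicase, and 6 of 8 had a promoter peak (75%), beside 66.4% of all genes at the same CpG content. MCM2 to MCM7 form the helicase ring. The strongest promoter peak reached a fold of 8.73 at Mcm3 (5.92 to 12.5, 28 fragments), 8.24 at Mcm7, 7.39 at Mcm6, 5.22 at Mcm4 and 4.17 at Mcm2 (2.37 to 6.89, 13 fragments), which was among the 3 weakest replication genes. The Mcm3 peak (chr1:20822237-20822842) had its summit 1979 bp upstream of the start site, at the edge of the promoter window. Nearer the start site Mcm3 had weaker peaks, with folds of 4.10 to 6.82. Mcm5 had neither a promoter peak nor any peak in its neighbourhood, and the nearest summit lay 19.6 kb from its start site. With the edge peak of Mcm3 counted, the subunits of a single ring ranged from no detectable peak to a fold of 8.73. Cdt1, the loading factor, reached 8.21, and Cdc6, its partner, had no promoter peak but the most distal peaks of all members.

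Genes that turn on the helicase and run the fork were mixed, with 5 of 9 promoters marked. They were 2 of 4 for helicase activation and 3 of 5 for the fork. At the same CpG content 57.2% and 65.6% of all genes had a promoter peak. Mcm10 and Cdc45, which activate the helicase, had folds of 5.22 and 8.21, whereas the GINS subunits Gins1 and Gins2 had no promoter peak, with nearest summits at 4.43 and 14.1 kb. Rfc3, a subunit of the clamp loader that places PCNA on DNA, had the strongest promoter peak of the members. Its fold was 15.7 (11.1 to 21.5, 36 fragments) at chr5:151650239-151650945, with a summit 540 bp downstream of the start site in an intron. That fold was at the 98.0th percentile of genes with a promoter peak. Another clamp loader subunit, Rfc4, had 8.71 (5.56 to 13.1), and Pcna, the sliding clamp, 5.17. The polymerase genes Pola1 and Pole, which encode catalytic subunits of polymerases alpha and epsilon, had no promoter peak, with nearest summits 43.3 and 17.0 kb away.

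All 4 genes of nucleotide supply had a promoter peak, beside 55.5% of all genes at the same CpG content. Only Tk1 had one with a -log10 q of 5 or more. Rrm1 and Rrm2, the subunits of ribonucleotide reductase, had folds of 5.22 and 3.93 (1.97 to 7.27, 8 fragments). Tyms, thymidylate synthase, had 4.79. Tk1, thymidine kinase, had 10.3 (6.90 to 14.7, 27 fragments) in a peak of 2516 bp (chr11:117821984-117824499), the widest of the members' strongest promoter peaks. Its summit lay 3604 bp downstream of the start site, outside the promoter window, and the peak also touched the promoter of Afmid. Nearer its start site Tk1 had weaker peaks, with folds of 4.74 (3.27 to 6.65) at a summit 213 bp upstream and 4.39 at a summit 32 bp upstream.

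Cyclin E genes, which encode partners of CDK2, and Cdc25a, a phosphatase that activates CDKs, were all marked. All genes at the same CpG content had a promoter peak in 71.6%. Of the 3 genes only Cdc25a had one with a -log10 q of 5 or more. The folds were 3.93 at Ccne1 (8 fragments), 5.22 at Ccne2 and 6.82 at Cdc25a. By contrast, 3 of the 4 transcription factor genes of the G1/S group had no promoter peak. E2f1 had a fold of 9.53 (6.08 to 14.3, 21 fragments) in a peak of 1388 bp (chr2:154567947-154569334). E2f2 and E2f8 had none at the promoter, with nearest summits at 3.17 and 2.56 kb. Mybl2, which encodes B-MYB, had no peak in its neighbourhood, and its nearest summit was 36.9 kb away. The 4 genes lay in the 3 deciles richest in CpG, where all genes had promoter peaks in 69.9 to 72.5%.

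In the mitosis group, the strongest promoter peaks of Cdk1 and its cyclins had different folds. Cdk1, the kinase that drives entry into mitosis, had a fold of 9.96 (6.42 to 14.8, 22 fragments) at chr10:69351150-69351528, and 4 promoter peaks in all. Ccna2 reached 6.96, while Ccnb1 and Ccnb2, the B-type cyclins that activate CDK1, had the lowest promoter folds of the members, 3.58 each (1.95 to 6.14, 11 fragments). A stronger peak of 8.67 (5.41 to 13.3, 19 fragments) lay inside Ccnb1 with its summit 2.67 kb downstream of the start site, beyond the promoter window. The interval of the strongest Cdk1 promoter peak did not overlap those of the B-type cyclins, but the difference was not tested. The background was 2 at both cyclin peaks and 1.05 at that Cdk1 peak. With 10 fragments over a background of 1.05, Aurka and Cdc20 had higher folds than the cyclins, 4.79 each. The other Cdk1 promoter peaks had folds of 5.22 to 6.08, inside the interval of the cyclins. Cdc25c, the phosphatase that activates CDK1, had no promoter peak, and its nearest summit was 7.63 kb away.

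The mitotic kinase genes all had a promoter peak, with 8.51 at Plk1, 5.47 at Aurkb and 4.79 at Aurka (2.55 to 8.40, 10 fragments). At the same CpG content 68% of all genes had one. Among spindle checkpoint and anaphase genes, 3 of 5 did, beside 64.4% of all genes at the same CpG content. Mad2l1, whose product restrains the anaphase-promoting complex, had a fold of 10.3 (6.87 to 14.9, 26 fragments) at chr6:66535793-66536718. Bub1b had 6.08 and Cdc20, an activator of that complex, 4.79. The checkpoint kinase genes Bub1 and Ttk (MPS1) had no promoter peak. The nearest summits were 39.7 kb from Bub1 and 90.2 kb from Ttk, the farthest of all members.

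Of the 8 genes for chromosome structure, kinetochore and spindle, 6 were marked (75%), beside 66.6% of all genes at the same CpG content. Kif11, the motor that separates the spindle poles, was the strongest mitosis gene at 11.3 (8.46 to 14.8, 50 fragments) in a peak of 1043 bp (chr19:37375161-37376203). Cenpa, the centromeric histone H3 variant, had 8.67, the kinetochore genes Cenpe and Cenpf 7.37 and 6.17, Birc5 (survivin) 7.42 and Mki67, which encodes the antigen Ki-67, 4.93. Top2a, topoisomerase II alpha, and Kif20a, a motor of cytokinesis, had no peak in their neighbourhoods, and their nearest summits lay 16.8 and 15.7 kb away. Foxm1, the transcription factor of the G2/M program, had a fold of 10.4 (7.03 to 14.8, 28 fragments) in a peak of 1001 bp. Mki67 and Top2a, both used as markers of proliferating cells, had 3 promoter peaks and none. Those of Mki67 were weak, with folds of 3.47 to 4.93 and summits 993 to 1924 bp downstream. None of them reached a -log10 q of 5 or lay within 500 bp of the start site.

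In all, 14 members had no promoter peak, and 5 of them, Mcm5, Mybl2, Ttk, Top2a and Kif20a, had no peak in the neighbourhood. Promoter elements were found both with and without a peak. Of the replication genes in the sequence table, 4 of 6 without a peak held an E2F site (Mcm5, Cdc6, Pola1 and E2f2) and 6 of 17 with a peak did. A CHR was in 3 of 3 mitosis genes without a peak (Bub1, Ttk and Top2a) and in 10 of 14 with one. Peak numbers in the list run to 122959, of which 584 are absent from what was analysed here. None of the absent numbers fell at the 14 promoters without a peak, and they touched the promoters of Mcm2, Pcna, Aurka and Mki67, whose peaks may be incompletely listed.

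Some promoters are shared, so a peak cannot be assigned to 1 gene. The strongest peak also touched the promoter of another gene at Mcm4 (Prkdc), Mcm7 (Ap4m1), Cdc45 (Ufd1), Tk1 (Afmid), Aurka (Cstf1) and Foxm1 (Rhno1). At Pole (Pxmp2), E2f8 (Gm2788) and Kif20a (Brd8) the promoter window held a start site of another gene and no peak. Thus 6 of 9 members with a shared window had a peak (66.7%, 35.4 to 87.9%), beside 30 of 41 of the rest (73.2%, 58.1 to 84.3%). Over all genes these shares were 75.5% and 39.5%, so members with a promoter of their own had a peak more often than such genes in general, though CpG content was not held equal there.

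The peaks mostly flanked the start sites. A peak covered the start site itself at 2 of 28 replication genes (7.14%, Tk1 and Cdc45), at 0 of 22 mitosis genes and at 2.48% of all genes. Of the 22 mitosis genes, 11 had a peak base within 500 bp upstream of the start site (50%, 30.7 to 69.3%). Those genes were Ccnb2, Cdk1, Aurkb, Plk1, Mad2l1, Birc5, Kif11, Cenpa, Cenpe, Cenpf and Foxm1. In the same 500 bp, 7 of 28 replication genes did (25%, 12.7 to 43.4%), and 23.4% of all genes. At the same CpG content all genes had 33.3% and 33.5%. The replication share was 25 points lower, with an interval from 47.9 points lower to 1.62 points higher, so it includes no difference. This stretch was chosen after the values were seen. Within 500 bp downstream the order was turned, with 8 of 28 replication genes (28.6%) and 4 of 22 mitosis genes (18.2%, 7.31 to 38.5%), beside 38.9% of all genes at the CpG content of the mitosis genes. From 501 to 1000 bp downstream the shares were 39.3% and 45.5%.

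**Figure D3:**
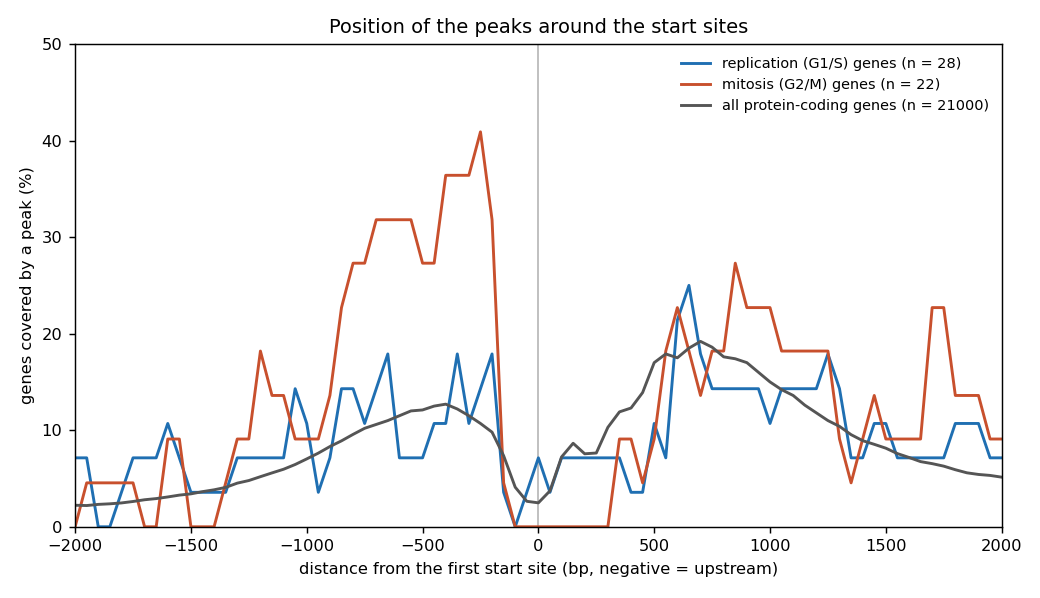
Share of genes covered by a peak (y axis, %) at each distance from the first start site (x axis, bp, negative upstream), for replication genes (blue), mitosis genes (red) and all genes (grey). Mitosis genes reached 40.9% at 250 bp upstream, where replication genes stayed at or below 17.9% on that side, and no mitosis gene was covered at the start site.

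The strongest promoter summit lay within 500 bp of a start site in 9 of 36 members (25%), beside 38.1% of all genes with a promoter peak. It was downstream in 19 and upstream in 17. Among mitosis genes it was upstream in 9 of 17, and in all genes it was downstream in 63.0%. The strongest peaks of the mitosis genes had a median width of 379 bp and those of the replication genes 206 bp, beside 294 bp in all genes.

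Distal peaks, candidates for enhancers, were spread unevenly. At least 1 lay near 29 members (58%, 44.2 to 70.6%), against 43.8% of all genes and 54.0% at the same CpG content. Replication genes had them at 17 of 28 (60.7%, 42.4 to 76.4%) and mitosis genes at 12 of 22 (54.5%, 34.7 to 73.1%). The difference was 6.17 points, with an interval from 19.9 points lower to 31.5 points higher in replication genes. There were 66 distal peaks at replication genes, a mean of 2.36 per gene, and 38 at mitosis genes, a mean of 1.73. Per 10 kb of neighbourhood these were 0.489 and 0.419, beside 0.545 in all genes. No distal peak was counted for more than 1 member.

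Cdc6 had 15 distal peaks, the most of the members, in the absence of a promoter peak. Of these, 5 lay in Cdc6 itself, from 9.69 to 10.7 kb downstream of its start site, with folds of 4.36 to 5.35, and 1 lay in Wipf2. The other 9 formed a run between genes, from 21.4 to 25.5 kb downstream, in which the last was the strongest at 11.9 (8 to 17.1, 27 fragments, chr11:98933567-98934360). Cenpf had 9, all inside its own body, with folds of 3.93 to 7.14. Tk1 and Cdk1 had 8 each, of which 7 lay in the gene itself at both. The strongest at Tk1 was 11.2 and the strongest at Cdk1 6.08. Cdc45 and E2f8 had 7 each, those of Cdc45 within its body, and 6 of those of E2f8 between genes at 6.30 to 10.0 kb. E2f8 and Cdc6 were alike in having many distal peaks and no promoter peak.

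The single strongest distal peak had a fold of 13.8 (9.55 to 19.4, 31 fragments), 15.3 kb from the start site of Cdt1 at chr8:122582751-122583772. It lay in an intron of Galns, so its gene is not known from these data. At Aurkb a peak of 1024 bp reached 11.1 (7.38 to 16.0, 26 fragments) 5.74 kb upstream, the strongest of 6 between genes there. E2f2 had 3 in its body, the strongest at 8.24 (5.08 to 12.7, 18 fragments). Gins1 had 3 in its body at 4.79 to 5.22, Pole 2 beyond its end at 5.22 and 7.80, and Gins2 1 in Gse1. Pola1, a long gene on chromosome X, had 1 at 3.62 (10 fragments), and Cdc25c 1 at 3.50 (7 fragments). Bub1 had no distal peak.

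By place, 33 of the 66 distal peaks of replication genes lay in the gene itself, 11 in another gene and 22 between genes. At mitosis genes 30 of 38 lay in the gene itself, 8 between genes and none in another gene alone. A summit inside both the member and another gene was counted to the member, as at Ccna2 (Exosc9) and Ccne2 (Ints8). Of the 30, Cenpf held 9 and Cdk1 7. Places were not counted for all genes, and the difference between the groups was not tested. The median fold of the 104 peaks was 5.13, beside 5.05 for the distal peaks of all genes.

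**Figure D4:**
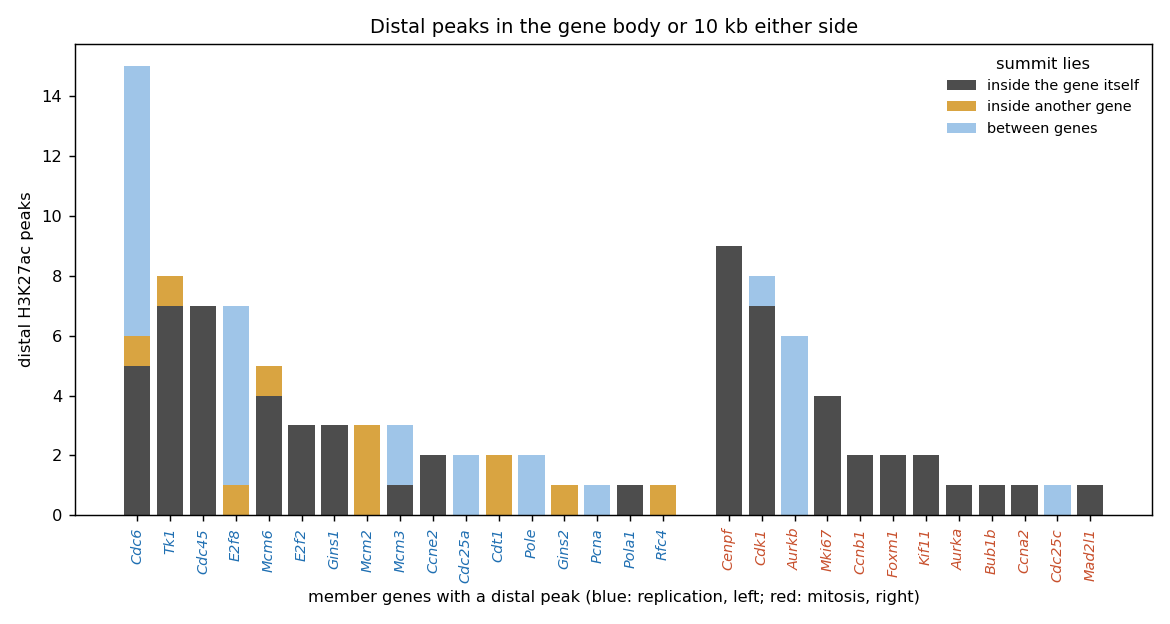
Number of distal H3K27ac peaks (y axis) at each of the 29 members that had any (x axis, replication genes left, mitosis genes right). Bars are stacked by where the summit lies. Cdc6 stands highest with 15, and peaks inside another gene but not the member (gold) occur at replication genes.

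Other genes of these pathways, listed by name, were also marked at most promoters, and the difference from the members was not tested. More of them share a promoter with another gene, 37.8% of the replication and 32% of the mitosis genes beside 18% of the members. Without shared promoters their shares were 67.9% and 85.3%, beside 73.2% of the members. Of 45 other replication genes, 36 had a promoter peak (80%, 66.2 to 89.1%), beside 67.3% of all genes at the same CpG content. The strongest were Gmnn, the inhibitor of CDT1, at 12.1 (8.15 to 17.4), Dnmt1, the maintenance DNA methyltransferase, at 11.7, and Chaf1a, a chaperone that deposits histones at the fork, at 9.96. The 9 without one were Gins3, Rfc1, Rfc2, Prim1, Pold1, Chaf1b, Ticrr, Cdc7 and Ung. Of the GINS genes, Gins4 had a promoter peak at 3.93 (1.97 to 7.27, 8 fragments), while Gins1, Gins2 and Gins3 had none. The clamp loader genes ranged from none at Rfc1 and Rfc2 to 15.7 at Rfc3.

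Of 50 other mitosis genes, 45 had a promoter peak (90%, 78.6 to 95.7%), beside 65.0% of all genes at the same CpG content. The strongest were Zwilch, a kinetochore gene of the checkpoint, at 15.2 (11.1 to 20.4, 43 fragments), Anln, which encodes anillin of the cleavage furrow, at 13, and Wee1, the kinase that holds CDK1 inactive, at 13. The 5 without one were Espl1 (separase), Pttg1 (securin), Ube2c, Melk and Ckap2. Whether the strongest peak of any of these other pathway genes also touched another gene's promoter is not given here. Median folds were 6.88 in the other replication and 6.94 in the other mitosis genes, close to the 6.82 and 6.96 of the members.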

How the data were processed

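H3K27ac CUT&RUN peaks of 1 MCP library were analyzed. The methods of the study describe mapping to mm10 with bowtie, removing reads from problematic regions and from amplified sequence around Col19a1, and peak calling with MACS1.4 against IgG. The submitters' processing notes name BWA, SAMtools and MACS2, so the tools and the threshold behind the list are not settled here (largest q 0.0471). For each peak the authors deposited a fold enrichment (a ratio to the caller's background), a -log10 p, a -log10 q and a score derived from the -log10 q. These describe peaks within 1 list. Fragments at the summit were recovered from the deposited fold and p with 1 scaling factor (0.885). Whole numbers within 0.002 of the -log10 p were found for all but 1 peak, and with the factor 3% off for 0%. They are inferred, and without molecular identifiers PCR copies may be among them.

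Peaks were assigned by any overlap of 1 bp to promoters and neighbourhoods of 21000 protein-coding genes, from 31603 start sites of curated RefSeq transcripts (GRCm38), whose chromosome lengths fit the list. All 50 members matched, as did 45 of 46 other replication and 50 of 50 other mitosis genes. Shares carry Wilson or Newcombe 95% intervals, medians order-statistic intervals. These intervals treat genes as independent draws, which genes chosen by name are not, so they are descriptions and not tests. CpG weighting used 10 strata of all genes. Python 3.11.15, numpy 2.4.6, pandas 2.3.3 and scipy 1.17.1 were used, and the overlap and fragment steps were tested on simulated data.

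The members and lists were chosen with earlier results of these data known. Named with full values were members without a promoter peak, the 5 highest and 3 lowest by fold in each group, the 5 with most distal peaks, and those whose peak is shared with another promoter. Others are given by fold. Alternatives changed the window, the peak cutoff, the transcripts, the flank and the members included.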

Additional observations from a re-analysis of the deposited data

How the results depend on the processing

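No paired analysis was possible because a single peak list of 1 library was used and no result comes from a test. Of 167 recomputed values, 133 stayed inside the interval of the reported value and 34 moved outside it. No turn of an established direction could arise, because every reported difference had an interval that included 0. No interval of a difference between replication and mitosis genes excluded 0 under any alternative. The difference in promoter share was negative throughout, from -23.4 points (window of 500 bp) to -1.09 points (without regulators that act in both phases). The difference in distal share ran from -4.22 points (50 kb either side) to 18.5 points (strongest 25% of the peaks), and that in median fold from -1.73 to 0.506. The replication median fold was 5.22 with a window of 500 bp or 1 kb and with the summit in the window. It was also 5.22 without regulators, without shared promoters and without chromosomes 1, 6, 11, 15 and X. In these settings the mitosis median was 6.17 to 6.96.

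A -log10 q cutoff of 5 (58665 peaks) and the strongest 25% (31097 peaks) lowered every share, as fewer peaks were counted. The promoter share fell to 35.7% and 35.7% in replication genes, 54.5% and 40.9% in mitosis genes, 44% and 38% in the members, 60% and 46.7% in other replication genes and 76% and 62% in other mitosis genes, beside 37.9% and 29.3% of all genes. The neighbourhood share fell to 68% and 62%, the distal share to 39.3% and 32.1% in replication genes and to 22.7% and 13.6% in mitosis genes. Distal peaks per gene fell to 1.07 and 0.464 in replication and to 0.682 and 0.227 in mitosis genes.

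A window of 500 bp gave promoter shares of 35.7% in replication genes, 46% in the members and 62.2% in other replication genes, beside 36.3% of all genes. With it the distal share of replication genes was 85.7%, and distal peaks per gene were 3.79 and 3.32 in replication and mitosis genes, since peaks left the promoter class. With a window of 1 kb they were 3.07 and 2.5. With 50 kb either side the neighbourhood share was 98%, the distal shares 82.1% and 86.4%, and the peaks per gene 8.18 and 5.5. Without chromosomes 1, 6, 11, 15 and X, distal peaks per replication gene were 1.41, a setting that leaves out Cdc6 and Tk1 among others. Including predicted transcripts, and leaving out the 4 members at absent peak numbers, were chosen after seeing the data and moved no value of the members or of the other pathway genes outside its interval. With predicted transcripts the shares of all genes were 46.8% for promoter and 42.7% for distal peaks. The lone library and its depth limit all of this: a member without a peak may carry marking below the caller's threshold.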
